A study of Saccharomyces cerevisiae with 4 samples.

Results

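The cytosolic ribosomal protein genes of budding yeast were followed on 4 arrays, from a wild type and from strains lacking SIR2, SIR3 or SIR4. They were taken as all Saccharomyces cerevisiae probe sets whose platform symbol is RPL or RPS followed by digits and an optional A or B. This gave 142 probe sets for 122 genes, of 5498 probe sets for 5449 genes of this yeast on the array. The genes comprised 70 of the large ribosomal subunit (RPL) and 52 of the small subunit (RPS). The R64 reference table holds 132 genes under the same naming rule, and the other 10 were not analysed here under a symbol of their own.

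The reference was BY4742, a wild-type strain whose haploid cells are of the alpha mating type. In the other strains SIR2, SIR3 or SIR4 was deleted by recombination with a KanMX cassette, and these are written sir2Δ, sir3Δ and sir4Δ. An effect of the cassette cannot be told apart from that of the deletion, and the number of clones is not given in the labels. All strains were in exponential growth at 30 °C in rich glucose medium (YPD), at a density of 0.7. Each strain was represented by 1 array, so no test was possible and none of the differences could be set against a spread between replicates. All values are log2 levels made by the authors with RMA, and differences are log2 differences from the single wild-type array, which the 3 comparisons share.

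The ribosome is built from RNA and from these proteins, and growing yeast spends a large part of its messenger RNA on them. Most ribosomal proteins of this yeast are encoded by a pair of paralogous genes, named A and B, that remain from an ancient duplication of the genome and often encode nearly identical proteins. Transcription of these genes depends on Rap1, Fhl1 and Ifh1, and is adjusted to nutrients and stress through the TOR and protein kinase A pathways. Sir2, Sir3 and Sir4 form the complex that silences chromatin at telomeres and the silent mating loci, and Sir2 also acts in the ribosomal DNA, which encodes the ribosomal RNA.

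The deleted genes matched the labels. The level of SIR2 was 9.96 in wild type against 3.68 in its deletion, that of SIR3 was 9.32 against 4.51, and that of SIR4 was 9.98 against 3.05. The 5 marker genes of alpha cells, each at 12.72 or above in wild type, had differences of -4.17 or lower in every deletion, and 0 of 6 marker genes of a cells passed 2-fold. Of 7 stress genes, 3 were higher and 1 lower at 2-fold in sir2Δ, 1 higher and 2 lower in sir3Δ, and 0 higher and 1 lower in sir4Δ. In bulk RNA, fewer cells of a type and less RNA per cell cannot be told apart.

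No ribosomal protein gene differed 2-fold from wild type in any deletion. The count was 0 of 122 in each, where 2.86% of all genes were called in sir2Δ, 2.4% in sir3Δ and 1.45% in sir4Δ. It was also 0 of 122 in each at 1.5-fold, where 10.5%, 6.5% and 3.51% of all genes were called. The median difference of the 122 genes was -0.0012 in sir2Δ, 0.0098 in sir3Δ and 0.0011 in sir4Δ. Over all 5449 genes the medians were -0.0021, -0.0079 and 0.0278, in the same order.

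The ribosomal protein genes also lay close together. The middle 50% of their differences spanned 0.0465 in sir2Δ, 0.0393 in sir3Δ and 0.0515 in sir4Δ. For all genes the same span was 0.404, 0.274 and 0.195. For 51 other bright genes, described below, it was 0.0467, 0.0290 and 0.0456, so the narrow span was not particular to ribosomal protein genes. At a limit of 1.2-fold, 1 gene of the 122, RPS14B, was higher in sir2Δ and again in sir3Δ, and none was in sir4Δ. At that limit 39.4%, 25.4% and 15.7% of all genes differed, in the same order and in either direction. Below wild type by any amount were 64 of the 122 genes in sir2Δ, against 50.4% of all genes, 45 in sir3Δ, against 51.6%, and 59 in sir4Δ, against 41.8%. When each array was centred on the median of its genes, the first of these counts became 20 and the second 21, so the sign of such small differences rests on the scaling.

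**Figure D1:**
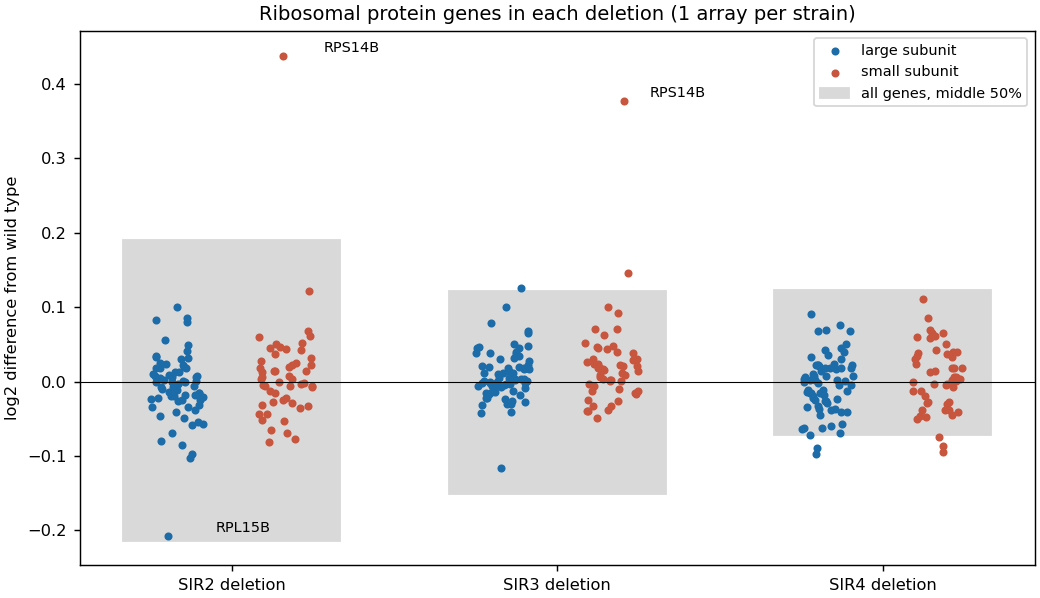
Log2 difference from wild type (vertical axis) of the 122 ribosomal protein genes in the 3 deletions (horizontal axis), 1 point per gene, with large-subunit genes in blue and small-subunit genes in red. The grey boxes span the middle 50% of all 5449 genes, and most points lie well inside them, with RPS14B at 0.44 and 0.38 the farthest outside.

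The genes were among the brightest on the arrays. Their wild-type levels ran from 9.82 to 15.00 with a median of 14.57, on arrays whose values ended at 15.2, and 110 of the 122 were at 14 or above. Of the 100 genes with the highest mean level, 67 were ribosomal protein genes. Levels of different probe sets depend on their sequences too, so these ranks describe the brightness of probe sets and not the abundance of transcripts. The spread over the 4 arrays was set beside level.

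The spread over the arrays was described by the difference between the highest and the lowest array, which does not depend on wild type as the reference. Its median was 0.051 for the 122 ribosomal protein genes and 0.320 for all genes. It was at most 0.1 for 106 of the 122, or 86.9%, and for 7.58% of all genes. Among 51 other genes with a mean level of at least 14.31, the lower quartile of the ribosomal protein genes, the median was 0.050, and 43 of the 51, or 84.3%, had at most 0.1. None of these 51 differed 2-fold in any deletion, and SCW4, a cell wall protein gene at -0.33 in sir3Δ, was the only gene among them past 1.2-fold. Other genes of that level thus had a spread as narrow. They were not all unrelated to the ribosome. Among the 51 were the ribosomal stalk protein genes RPP0, RPP1A, RPP1B, RPP2A and RPP2B and the elongation factor genes TEF2, EFT2 and YEF3. Whether these probe sets were near the upper limit of what the arrays can measure was not tested.

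The genes were also set beside other genes within bands of mean level, cut at the quartiles of the ribosomal protein genes and, below these, at 14 and 13. From 14.74 upward the median spread was 0.0347 for 33 ribosomal protein genes and 0.0452 for 21 other genes. Between 14.55 and 14.74 it was 0.0451 for 28 and 0.0436 for 12. Between 14.31 and 14.55 it was 0.0575 for 30 ribosomal protein genes and 0.0837 for 18 others. Between 14 and 14.31 it was 0.0758 for 18 and 0.123 for 44, and between 13 and 14 it was 0.101 for 9 and 0.204 for 262. The ribosomal protein genes thus had the smaller median in every band but that from 14.55 to 14.74, and the gap was wider in the lower bands. Level was not matched within a band, spread narrowed with level, and the other genes again included genes of translation.

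**Figure D2:**
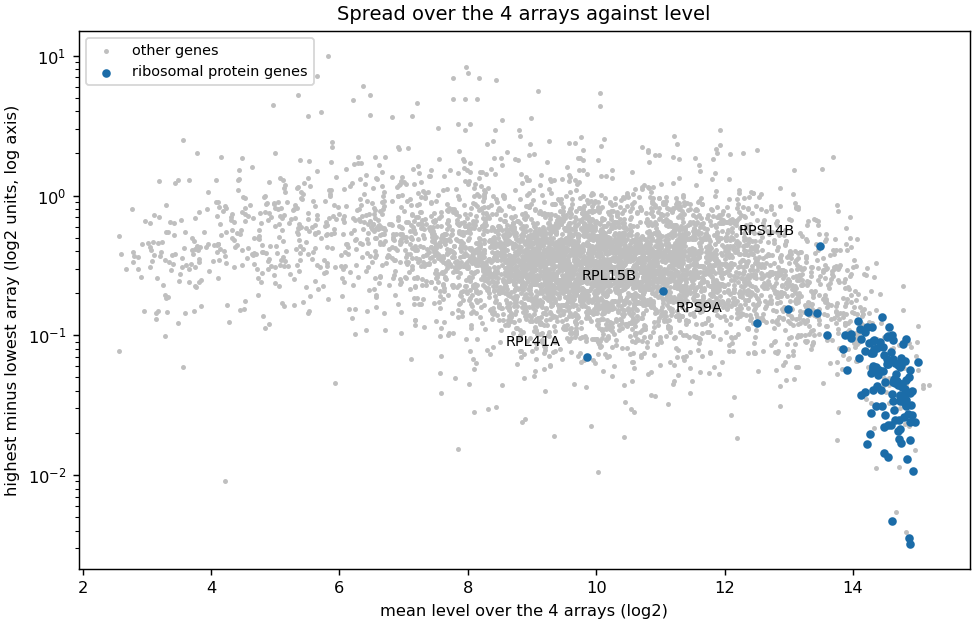
Difference between the highest and the lowest array (vertical axis, log2 units on a log axis) against the mean level over the 4 arrays (horizontal axis, log2), with 1 point per gene, ribosomal protein genes in blue and other genes in grey. Both groups narrow towards the right end, and RPS14B at 0.44 and RPL15B at 0.21 stand highest among the blue points.

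The flattest genes came from both subunits. RPS9B, a protein of the small subunit near the decoding site, was at 14.60 in wild type and had a spread over the arrays of 0.0047. RPL10, a protein near the site of peptide bond formation, was at 14.93 in wild type and had a spread of 0.011. RPL4A and RPS8A had spreads of 0.0032 and 0.0035, and their brightest probe sets were of the kind that matches several sequences. In all, 12 genes had a spread under 0.02.

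Large- and small-subunit genes differed in their medians by at most 0.0135 in any deletion. The 70 large-subunit genes had median differences of -0.0061, 0.0032 and -0.0008 in sir2Δ, sir3Δ and sir4Δ, and the 52 small-subunit genes 0.0032, 0.0167 and 0.0042. The 17 genes with no A or B in the symbol had a median spread over the arrays of 0.035, and the 105 with A or B 0.056. The first of these groups had a median wild-type level of 14.80 and the second 14.52. The 52 A genes and the 53 B genes had median spreads of 0.058 and 0.056.

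The genes were then grouped by where their proteins sit in the ribosome. No group held a gene past 2-fold, as none of the 122 genes passed it. RPL5, RPL11A and RPL11B, whose proteins carry the 5S RNA into the large subunit, had differences from -0.09 to 0.02 over the 3 deletions. RPL11B was read there by a shared probe set, and its specific one was at -0.11 in sir2Δ. RPL2A, RPL2B, RPL3 and RPL10, around the peptidyl transferase centre, ran from -0.04 to 0.04. RPL12A and RPL12B, at the base of the stalk that binds elongation factors, ran from -0.04 to 0.08. RPL24A, RPL24B, RPL30 and RPL41A, which contribute to bridges between the subunits, ran from -0.05 to 0.07. RPL40A, RPL40B and RPS31, which are made as fusions to ubiquitin, ran from -0.04 to 0.04. In these groups RPL2A and RPL41A were also read by shared probe sets.

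The polypeptide exit tunnel and its rim were represented by 15 genes. Their medians were -0.0061, -0.0028 and 0.0017 in sir2Δ, sir3Δ and sir4Δ. RPL26A was at 14.54 in wild type, 14.64 in sir2Δ, 14.61 in sir3Δ and 14.62 in sir4Δ, so the wild-type array was the lowest. RPL39, which encodes a small protein that lines the tunnel, was at 14.02, 14.10, 14.15 and 14.02 in the same order. RPL4B had the lowest mean difference of the group, with -0.10, -0.02 and -0.07, and RPL19A came next with -0.08, -0.04 and -0.02.

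On the small subunit, 8 genes of mRNA entry and decoding and 4 genes of the beak were examined. RPS2 and RPS3, which line the path by which mRNA enters, had differences between -0.02 and 0.03. RPS23A, at the decoding centre, had -0.05, -0.05 and -0.09 by its brighter, shared probe set and 0.02, 0.01 and 0.06 by its specific one, so its direction rests on the probe set. RPS9A was at 12.45 in wild type, 12.57 in sir2Δ, 12.52 in sir3Δ and 12.45 in sir4Δ, the widest of this group. RPS10B of the beak was at 13.25, 13.29, 13.40 and 13.26 in the same order, so sir3Δ stood above the other arrays. By its second, shared probe set, of nearly equal brightness, the difference in sir3Δ was 0.03 and not 0.15. RPS15 and RPS30A, also of the entry and decoding group, had differences between -0.04 and 0.05. RPS12 and RPS20 of the beak differed by at most 0.03.

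The platform of the small subunit, where mRNA leaves, held the gene with the largest difference. RPS14B encodes the uS11 protein of the platform together with its paralog RPS14A. RPS14B was at 13.26 in wild type, 13.70 in sir2Δ, 13.64 in sir3Δ and 13.35 in sir4Δ. The sir2Δ and sir3Δ were the high arrays, and sir4Δ lay near wild type. The differences were 0.44, 0.38 and 0.08, or 1.35-fold, 1.3-fold and 1.06-fold. The other 9 genes of this group differed by at most 0.08 in any deletion, among them RPS28A at 0.05, 0.05 and 0.04.

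RPS14A stayed level where RPS14B did not. It was at 14.82 in wild type, 14.81 in sir2Δ, 14.82 in sir3Δ and 14.78 in sir4Δ. Both probe sets are of the class that matches a single gene. The protein is known to hold down expression of RPS14B by binding its transcript, as background from work in this yeast. The medians of the 7 stress genes were 0.64, 0.39 and -0.21 in sir2Δ, sir3Δ and sir4Δ, with single genes on both sides of wild type in each. The part of stress in the RPS14B result was not tested.

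RPL18B, a large-subunit gene, was measured by 2 probe sets that gave different results. The probe set specific to RPL18B was at 12.77 in wild type, 13.34 in sir2Δ, 13.21 in sir3Δ and 13.05 in sir4Δ. All 3 deletions were above wild type, by 0.56, 0.44 and 0.27, or 1.48-fold, 1.35-fold and 1.21-fold. The brighter probe set under the same symbol, of the class that matches several sequences, was at 14.81, 14.83, 14.83 and 14.80 in the same order and so showed no such order of arrays. Because the brightest probe set stood for each gene, the count at 1.2-fold given above leaves RPL18B out. Of the 113 genes with a specific probe set, counted on these alone, 2, RPL18B and RPS14B, were higher at 1.2-fold in sir2Δ and in sir3Δ. In sir4Δ 1, RPL18B, was higher. Of all genes, by brightest probe sets, 19%, 11.4% and 8.46% were higher at that limit in sir2Δ, sir3Δ and sir4Δ. The 51 bright genes of similar level to the shared probe set are described above, and whether that probe set had room to show a change was not tested.

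By the brightest probe sets, RPL15B was the gene farthest below wild type in sir2Δ and sir3Δ, and RPL9A, at -0.10, in sir4Δ. By their specific probe sets RPS10A, at -0.15, and RPL21A, at -0.12, were lower in sir4Δ than RPL9A. RPL15B was at 11.12 in wild type, 10.92 in sir2Δ, 11.01 in sir3Δ and 11.10 in sir4Δ, and thus fell by 0.21, 0.12 and 0.02 on the log2 scale. Its paralog RPL15A was at 14.49, 14.43, 14.49 and 14.50. Both encode a protein of the large subunit, and both probe sets are specific. A difference of this size lies inside the middle 50% of all genes, which ended at -0.214 in sir2Δ and -0.151 in sir3Δ.

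**Figure D3:**
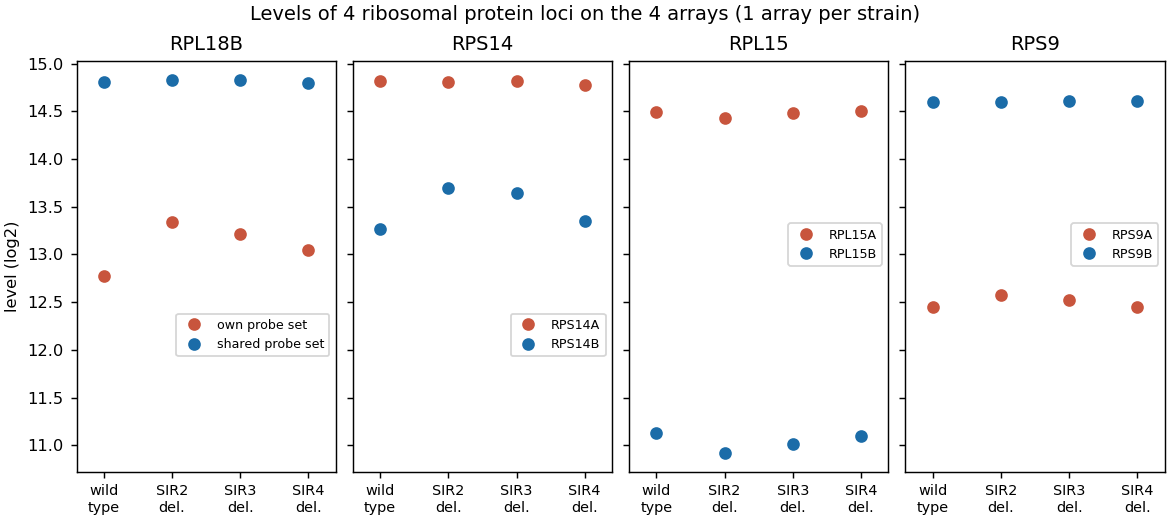
Log2 level (vertical axis) on each of the 4 arrays (horizontal axis) for RPL18B by its own and its shared probe set, and for the pairs RPS14, RPL15 and RPS9. The upper series in each panel is flat, while the own RPL18B probe set and RPS14B are lowest in wild type and highest in sir2Δ.

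Beyond these, the genes at the ends of each comparison lay within 0.15 of wild type. By the brightest probe sets, the 4 highest in sir2Δ were RPS14B, RPS9A, RPL26A and RPL9B, the last at 0.09. The 4 lowest were RPL15B, RPL4B, RPL35A at -0.10 and RPL22B at -0.09. RPL35A had a shared probe set only, and RPL11B by its specific one was at -0.11. In sir3Δ the highest after RPS14B were RPS10B, RPL39 and RPL9B, at 0.15, 0.13 and 0.10, and the lowest after RPL15B were RPS23A, RPL20B and RPL19A, at -0.05, -0.04 and -0.04. RPS7B, a small-subunit gene, led in sir4Δ, with levels of 14.06 in wild type, 14.08 in sir2Δ, 14.11 in sir3Δ and 14.17 in sir4Δ. It was followed there by RPL13A at 0.09, RPS14B at 0.08 and RPL26A at 0.08, and the lowest were RPL9A, RPS23A, RPL11A and RPS29B, from -0.10 to -0.09. Of these, RPS23A and RPS29B were read by shared probe sets, and their specific probe sets had 0.06 and -0.02 in sir4Δ. RPS14B was thus among the highest in each comparison, all of which use the same wild-type array.

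Genes whose probe sets were dimmer had the wider spread. In wild type 12 genes were under 14, from RPL41A, RPL15B, RPS9A, RPL22B, RPS10B, RPS14B and RPS19A upward. Each of the 12 has A or B in its symbol, as do 105 of all 122. The median spread over the arrays was 0.112 for the 12 and 0.0463 for the other 110. RPL41A, whose protein is exceptionally short, was the dimmest at 9.82 and had a spread of 0.070. RPL22B was at 12.99 in wild type, 12.91 in sir2Δ, 13.01 in sir3Δ and 13.06 in sir4Δ.

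Paralogs were compared by the offset of the A over the B gene on each array. The offset itself mixes the levels of different probe sets and has no meaning on its own, so its change between arrays was used. As spread narrowed with level, such a change can also arise where both copies change alike and the brighter probe set shows less of it, and these were not told apart. Both copies were measured for 48 pairs, and in 34 of these both probe sets were specific to their gene. The offset changed 2-fold from wild type in 0 of the 48 pairs in any deletion. At 1.2-fold it changed in 1 pair, RPS14, in sir2Δ and in sir3Δ, and in none in sir4Δ. The median range of the offset over the 4 arrays was 0.080, and 33 pairs stayed within 0.1.

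The offset of the RPS14 pair changed the most. RPS14A exceeded RPS14B by 1.55 in wild type, 1.11 in sir2Δ, 1.18 in sir3Δ and 1.43 in sir4Δ. The offset thus fell by 0.44, 0.38 and 0.13 on the log2 scale. In sir2Δ and sir3Δ RPS14A itself differed by less than 0.01, and in sir4Δ RPS14A was at -0.04 and RPS14B at 0.08. It ranged over 0.444, and the next widest pair, RPS22, over 0.162.

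The RPS22 pair had offsets of 0.36 in wild type, 0.41 in sir2Δ, 0.30 in sir3Δ and 0.25 in sir4Δ. Its changes from wild type were 0.05, -0.06 and -0.12, so the deletions lay on both sides of wild type. The RPS23 pair changed by -0.04, -0.01 and -0.15, with RPS23A read by its shared probe set, and by 0.03, 0.05 and 0.0016 with specific probe sets alone. The RPL15 pair changed by 0.15, 0.11 and 0.04. The RPL22 pair changed by 0.08, -0.01 and -0.06, the RPS27 pair by -0.05, -0.02 and 0.09. The RPS19 pair changed by 0.07, 0.08 and -0.05 with the shared probe set of RPS19B, and by 0.05, 0.07 and 0.01 with the specific one. RPL9 encodes a large-subunit protein near the stalk, and the RPL9 pair had changes of -0.10, -0.08 and -0.13. RPL9B had differences of 0.09, 0.10 and 0.03 and RPL9A of -0.01, 0.02 and -0.10, so RPL9A made up most of the change in sir4Δ.

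Several pairs hardly changed. The offset of RPL14 ranged over 0.009, that of RPL40 over 0.022 and that of RPL33 over 0.032. For RPL14 the B gene was represented by a probe set that matches several sequences, so the copies are not told apart there. For RPL40 and RPL33 both probe sets were specific. RPL40A was at 14.75 in wild type, 14.73 in sir2Δ, 14.77 in sir3Δ and 14.71 in sir4Δ, and RPL40B was at 14.18, 14.17, 14.23 and 14.15 in the same order. The RPL40 copies rose and fell together across the arrays by a few hundredths.

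**Figure D4:**
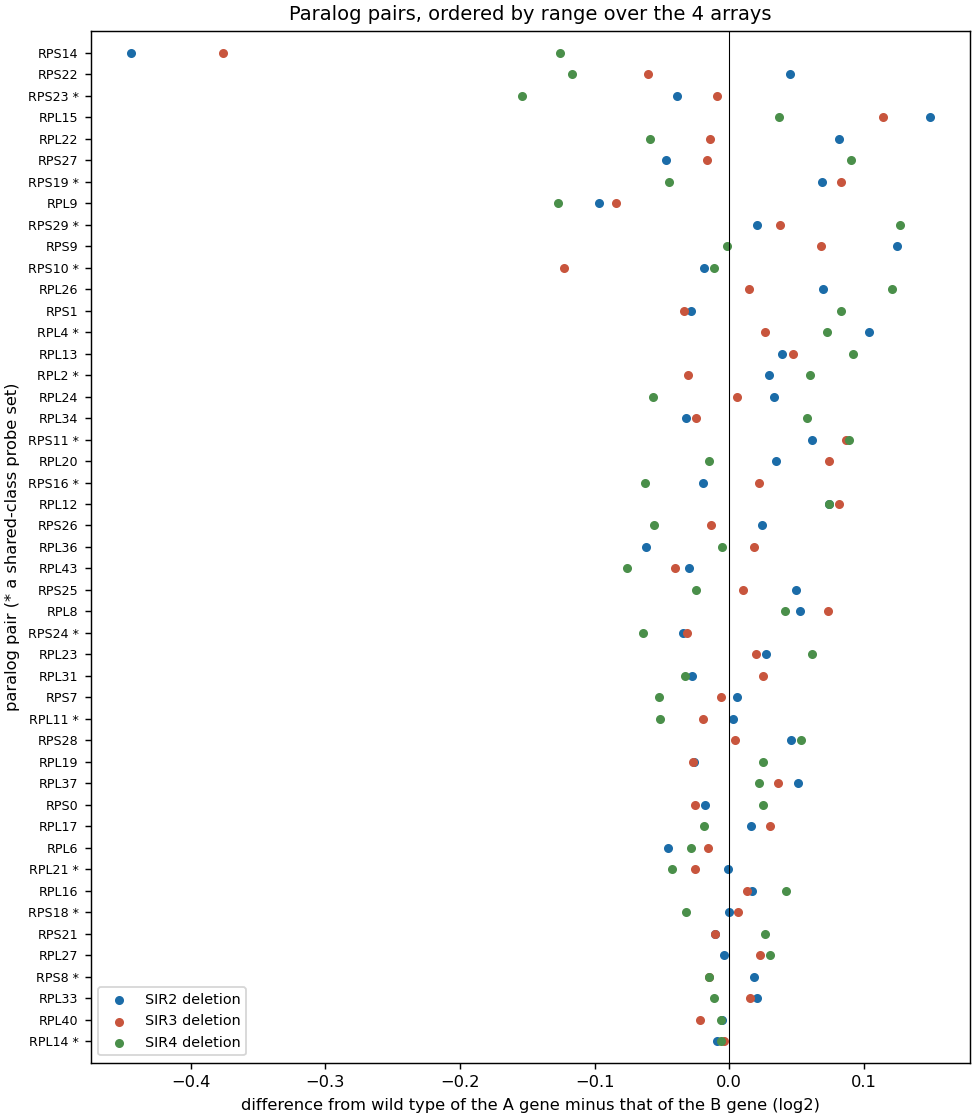
For 47 of the 48 paralog pairs (vertical axis, ordered by the range over the 4 arrays), the difference from wild type of the A gene minus that of the B gene (horizontal axis, log2) in the 3 deletions. An asterisk marks pairs with a probe set that matches several sequences. RPS14 at -0.44 and -0.38 lies outside the span from -0.154 to 0.149 that holds the others.

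Probe sets specific to a gene could be compared with shared ones for 20 genes. The largest gap between the differences from wild type of the 2 probe sets had a median of 0.0697 over these genes, which included RPL2A, RPL8A, RPL11B, RPL14B, RPL18B, RPL20B, RPL21A, RPS8A, RPS10A, RPS10B, RPS11B, RPS16A, RPS18B, RPS19B, RPS23A, RPS24A, RPS26A, RPS29A and RPS29B. It was 0.54 for RPL18B, in sir2Δ, and at most 0.213 for the other 19. With specific probe sets alone 47 pairs could be formed, RPS14 stayed the widest at 0.444, and RPL11 was next. For RPL11 the changes were 0.09, 0.01 and -0.10, and RPL11B by its specific probe set had -0.11, -0.04 and 0.01. In sir4Δ the specific probe set of RPS10A was at -0.15, and its shared probe set differed by -0.0043.

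Several ribosomal protein genes lie next to each other, and the neighbours of the genes that stood out were examined. Order was taken from the R64 table, in which 8 pairs of adjacent protein-coding genes are both ribosomal protein genes by name. RPS14B is followed by RPS22A and then by RPL39. RPS22A had differences of 0.07, 0.04 and -0.05 and RPL39 of 0.08, 0.13 and 0.0019. RPL18B adjoins RPS19B, whose brightest probe set, a shared one, had -0.02, -0.01 and -0.03, and whose specific one had -0.0020, -0.0039 and -0.09. These adjoining ribosomal protein genes, the only neighbours examined, were closer to wild type than RPS14B and the specific probe set of RPL18B in sir2Δ and sir3Δ. They were also brighter, at 14.02 or above in wild type, against 13.26 for RPS14B and 12.77 for that probe set. As spread narrowed with level, the sizes are not directly comparable.

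RPS1A adjoins SIR3, the gene removed in sir3Δ. RPS1A was at 14.10 in wild type, 14.06 in sir2Δ, 14.07 in sir3Δ and 14.13 in sir4Δ. The level in sir3Δ lay between those of the other deletions, and the whole spread was 0.068. RPS1B, its paralog elsewhere in the genome, was at 14.32, 14.32, 14.33 and 14.27.

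The deletions were also compared with each other, without the wild-type array. No ribosomal protein gene differed 2-fold between any of the deletions, against 1.05% of all genes between sir2Δ and sir3Δ, 1.65% between sir2Δ and sir4Δ and 1.27% between sir3Δ and sir4Δ. The median of the 122 genes was -0.012 for sir2Δ over sir3Δ, 0.0009 for sir2Δ over sir4Δ and 0.0096 for sir3Δ over sir4Δ. At 1.2-fold and by the brightest probe sets, RPS14B alone was called, higher by 0.35 in sir2Δ than in sir4Δ, where 37% of all genes differed in either direction. It was also higher by 0.29 in sir3Δ than in sir4Δ, where 26.5% of all genes did. Between sir2Δ and sir3Δ 0 genes passed, against 27.5% of all genes, and RPS14B differed by 0.061. Counted on specific probe sets, RPL18B also passed 1.2-fold, higher by 0.29 in sir2Δ than in sir4Δ.

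Genes that work with the ribosomal proteins were examined next, from lists drawn up by function. At 2-fold 2.86%, 2.4% and 1.45% of all genes were called in sir2Δ, sir3Δ and sir4Δ. A count of 0 in lists this short is near that share. The 5 stalk proteins RPP0, RPP1A, RPP1B, RPP2A and RPP2B, which complete the large subunit, held none past 1.2-fold in any deletion and had medians of 0.0054, 0.0147 and -0.0246 in sir2Δ, sir3Δ and sir4Δ. Of 8 elongation factor genes none was called at 2-fold, and the medians were 0.04, 0.02 and -0.03. TEF2, which encodes elongation factor 1A, was at 15.10 in wild type, with differences of 0.01, 0.01 and -0.03. ANB1, the form of eIF5A made under low oxygen, was at 11.00 in wild type, with differences of 0.04, -0.86 and -0.81, while its paralog HYP2 had 0.05, 0.02 and -0.05. YEF3, TEF4 and EFB1, which also act in elongation, had differences between -0.02 and 0.07.

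Initiation factors, and a mixed list of chaperones of ribosomal proteins and of nascent chains, had medians below wild type in sir2Δ. None of the 14 genes of the chaperone list, which also held AFG2, was called at 2-fold. Of all genes 2.86%, 2.4% and 1.45% were, in sir2Δ, sir3Δ and sir4Δ. At 1.2-fold 6 of the 14 were lower and 0 higher in sir2Δ, where 20.3% of all genes were lower. The 6 were RRB1, SYO1, ACL4, YAR1, TSR2 and BCP1. EGD1, EGD2, SSB1, SSB2, ZUO1 and SSZ1, which act on nascent chains and were at 13.31 or above in wild type, had -0.10 to 0.11 in sir2Δ. In sir3Δ 2 were lower, against 14.1% of all genes, and in sir4Δ 0, against 7.19%. The medians were -0.17, -0.03 and 0.05 in sir2Δ, sir3Δ and sir4Δ. TSR2, which protects the ribosomal protein Rps26, had -0.83, -0.46 and -0.12. BCP1, a chaperone of Rpl23, had -0.54, -0.28 and 0.09. SSZ1, which acts on nascent chains at the ribosome, had 0.11, 0.10 and 0.06. AFG2, an ATPase that acts on pre-ribosomal particles, had -0.03, 0.04 and 0.23. None of 17 initiation factor genes was called at 2-fold, and the medians were -0.09, 0.03 and 0.04. At 1.2-fold 1 was lower in sir2Δ, against 20.3% of all genes, and 1 higher in sir3Δ, against 11.4%. The lower 1 was TIF35 of the eIF3 complex, with -0.32, -0.02 and 0.01. The higher 1 was TIF4632, at 0.29 in sir3Δ. TIF11, which encodes eIF1A, had -0.19, -0.02 and -0.12, TIF5, which encodes eIF5, had 0.03, 0.07 and 0.17, and FUN12, which encodes eIF5B, had 0.02, 0.10 and 0.12.

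The genes for Rps26 and Rpl23 lay closer to wild type than those of their chaperones in sir2Δ and sir3Δ. RPS26A had -0.05, -0.04 and -0.02, RPS26B had -0.08, -0.03 and 0.04, RPL23A had 0.01, 0.0033 and 0.07 and RPL23B had -0.02, -0.02 and 0.01. TSR2 and BCP1 were at 12.24 and 11.72 in wild type, and RPS26A, RPS26B, RPL23A and RPL23B lay between 14.50 and 14.72. As the spread of genes narrowed with level on these arrays, the sizes of these differences are not directly comparable.

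None of 13 transcriptional regulators of the ribosomal protein genes was called at 2-fold in any deletion. Of all genes 2.86%, 2.4% and 1.45% were, in sir2Δ, sir3Δ and sir4Δ, so 0 in a list this short is near that share. The medians of the 13 were -0.07, -0.01 and 0.05. At 1.2-fold 2 of them were higher and 4 lower in sir2Δ, where 19% of all genes were higher and 20.3% lower. In sir3Δ 2 were higher, against 11.4% of all genes, and 2 lower, against 14.1%. In sir4Δ 0 were higher and 0 lower, against 8.46% and 7.19% of all genes. RAP1, the activator that binds their promoters, was at 10.96 in wild type, with differences of -0.07, -0.01 and 0.02. IFH1, the coactivator, had -0.46, -0.03 and 0.10, and FHL1, which recruits it, had -0.31, -0.12 and -0.04. TOD6 and DOT6, related repressors of ribosome biogenesis genes, went opposite ways, with -0.85, -0.27 and -0.10 for TOD6 and 0.49, 0.61 and 0.21 for DOT6. ABF1, a general regulatory factor at some of these promoters, had 0.43, 0.48 and -0.11. CRF1, a corepressor at ribosomal protein genes, had -0.44, -0.44 and 0.05 and was dim, at 4.95 in wild type.

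Of 15 genes of TOR and protein kinase A signalling none was called at 2-fold. Of all genes 2.86%, 2.4% and 1.45% were, in sir2Δ, sir3Δ and sir4Δ. At 1.2-fold 5 of the 15 were higher and 2 lower in sir2Δ, where 19% of all genes were higher and 20.3% lower. In sir3Δ 4 were higher and 0 lower, against 11.4% and 14.1% of all genes. In sir4Δ 0 passed that limit, against 15.7% of all genes in either direction. The medians were 0.23, 0.11 and 0.06. TPK2, a catalytic subunit of protein kinase A, had 0.80, 0.41 and -0.09, and CYR1, the adenylate cyclase, had 0.74, 0.52 and -0.01. TAP42, an effector of TOR, had -0.48, -0.10 and -0.14, and RAS1, which activates the cyclase, had -0.34, -0.01 and 0.06. The 7 stress genes ran from DDR2 at -1.43 to TSL1 at 2.16 in the same sir2Δ array, and their part in these differences was not tested.

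**Figure D5:**
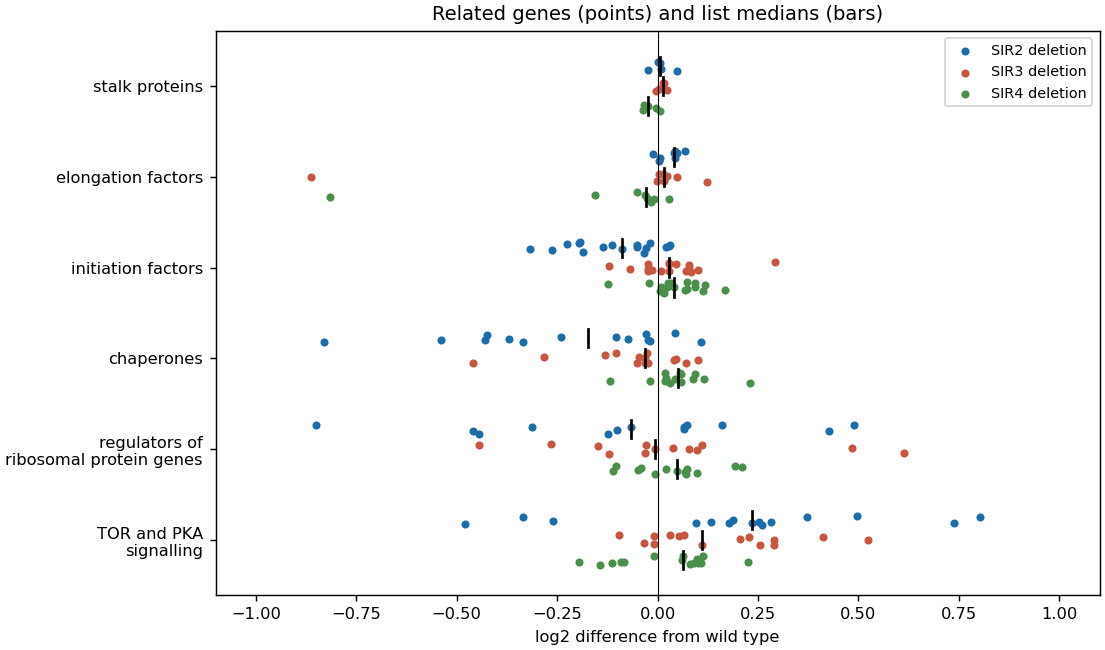
Log2 difference from wild type (horizontal axis) of single genes (points) in 6 lists related to the ribosomal proteins (vertical axis), with 1 row per deletion and a black bar at each list's median. Stalk proteins and elongation factors lie near 0 apart from ANB1 at -0.86 and -0.81, and the chaperones spread to -0.83 in sir2Δ.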

How the data were processed

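Total RNA of 4 yeast strains was measured on Affymetrix arrays, per the labels from 200 ng of RNA as biotin-labelled cRNA. The deposited values are on the log2 scale, 1 per probe set, and the authors computed them by RMA (submitters' processing notes, which give no version). RMA gives the arrays a common distribution, so a shift of all genes at once would not be seen. Samples were grouped by their labels.

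Of 10928 probe sets, 5498 had a gene of the R64 table, found through the platform's gene identifiers, which made 5449 genes. Where a gene had several probe sets, as 47 did, the one with the highest mean level was taken. Names ending in _s_at or _x_at mark probe sets that match several sequences, as did 29 of the 142 used here; the other 113 are called specific. Differences, counts, medians and ranges were computed with Python 3.11.15, pandas 2.3.3, NumPy 2.4.6 and Matplotlib 3.10.9. The 2-fold call was tested on simulated shifts well past that limit, so the test does not cover differences as small as those reported here. A gene was called at 2-fold, with 1.5-fold and 1.2-fold as alternatives, and precision is limited by having 1 array per strain.

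Named were the deleted genes, RPS1A, members with several probe sets, the 4 highest and 4 lowest members per deletion, the 8 widest and 3 narrowest pairs, and the 2 highest and 2 lowest genes of each list by mean difference; others were chosen after their values were seen. Members and lists were chosen with earlier results of these data known, and the limits of 0.1, 0.02 and 14 were set after the values were seen. A paralog pair is not reported here. Introns, promoters, proteins and sequences were not analysed here.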

Additional observations from a re-analysis of the deposited data

How the results depend on the processing

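No ribosomal protein gene and no pair passed 2-fold or 1.5-fold under the alternatives run, which were median centring (genes only), repeated quantile normalization, specific probe sets alone, the mean of probe sets and the 1.5-fold limit, each on its own. At 1.2-fold 1 gene was higher and 1 pair changed in each of sir2Δ and sir3Δ, or 2 genes and 1 pair there and 1 gene in sir4Δ with specific probe sets alone, a combination added after the data were seen. Between sir2Δ and sir4Δ 2 genes and not 1 passed 1.2-fold with specific probe sets alone, also added then. The members' medians lay between -0.0064 and 0.0375 over 15 values from alternatives, and the large-minus-small difference of medians between -0.0205 and 0.0046. Centring changed the number of members below wild type to 20 in sir2Δ and 21 in sir3Δ, from 64 and 45; by construction, centring adds 1 constant to every difference of an array. Of all genes 156, 131 and 79 were called at 2-fold in sir2Δ, sir3Δ and sir4Δ, and 0, 0 and 0 of those at or above the lower quartile of member level. Of 846 values of named genes under alternatives, 841 moved by under 0.1. The 5 that moved more were RPL18B, which took 0.29, 0.23 and 0.13 with the mean of its probe sets, 1 other member in sir4Δ, at -0.04 with the mean, and CRF1 in sir3Δ, at -0.31 after repeated normalization. No paired analysis was possible because each strain had 1 array. With no replicates, differences of a few hundredths have no error to be read against.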

Other observations

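The array also carries probe sets for another yeast, 13 of which bear symbols of ribosomal protein genes in lower case. The 95th percentile of the 1746 named probe sets of that yeast was 4.29 in wild type, 4.32 in sir2Δ, 4.39 in sir3Δ and 4.28 in sir4Δ. Above it lay 4 of the 13 in wild type and 5 in each deletion. The brightest, named rpl13, was at 6.68 in wild type, 7.01 in sir2Δ, 7.11 in sir3Δ and 6.63 in sir4Δ, and rps102 was at 5.21, 5.16, 5.32 and 5.10.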
